A study of Mus musculus with 2 samples.

Results

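The 10 genes described here are early-response genes: the zinc-finger factor Egr1, the nuclear receptor Nr4a1, the Krüppel-like factors Klf2, Klf4 and Klf6, the feedback genes Zfp36, Btg2, Dusp1 and Socs3, and Ier2. They were chosen by name, and all 10 had a row in the UMI tables, which list 24522 gene IDs in the multichamber study and 22679 in the study of fixed and live cells. Single heart muscle cells of C57BL/6 wild-type mice were freed by perfusing the heart with enzymes for 9 minutes, placed in plates by a cell sorter for large particles, and read by SCRB-seq, in which each captured mRNA is tagged near its 3' end with a well barcode and a unique molecular identifier (UMI). The multichamber mice were about 3 months old, and their cells filled 4 libraries, A to D. Wells with at least 1000 gene UMIs and 500 genes were kept, which left 56 of 71 labelled left atrial (LA), 44 of 69 right atrial (RA), 91 of 96 left ventricular (LV) and 90 of 96 right ventricular (RV) wells. The second study kept 35 of 36 ventricular wells sorted after ethanol fixation and 31 of 36 sorted live. The labels name no other allele or agent. No animal is named for any well, so each label is 1 pool without replicates, differences carry no test, and the 95% intervals below cover counting error only.

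Kept LA wells summed to 933747 nuclear-encoded UMIs, RA wells to 470095, LV wells to 2566040 and RV wells to 2988611, while fixed wells summed to 2424636 and live wells to 1483859. All 10 cardiomyocyte marker genes were detected in every pool, and they took a median of 7.56%, 7.08%, 8.05% and 8.09% of a well's nuclear-encoded UMIs in LA, RA, LV and RV, and of 3.56% in fixed and 4.62% in live wells. Of the atrial muscle markers, Nppa was at 0 in LA, and Nppa, Myl7, Myl4 and Sln were all at 0 in RA, so these pools are called by their labels. Erythroid RNA took 2.68% of the LA, 4.98% of the RA, 1.21% of the LV and 1.30% of the RV pool. In the multichamber study 9 wells held under 2% cardiomyocyte marker RNA, 6 in LA, 2 in LV and 1 in RV, and results that rest on them are given with and without them. The 332 labelled multichamber wells had 332 distinct well barcodes, and fixed and live wells shared 0. The multichamber wells used 84 barcodes of 6 bases, 80 of which occurred in all 4 libraries.

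Early-response genes are switched on within minutes of a signal, without new protein synthesis, through factors that already sit at their promoters, among them the serum response factor at CArG boxes and the cyclic AMP response element binding protein. Several encode brakes on the response: Zfp36 (tristetraprolin) binds AU-rich elements in mRNA and speeds their decay, Btg2 recruits deadenylases, Dusp1 removes phosphate from MAP kinases, and Socs3 blocks JAK signalling. Their own mRNAs are short-lived, and AU-rich elements in the 3' untranslated region (UTR) contribute to this. Such genes are known to be induced by enzymatic dissociation of tissue as well as by stretch, flow and hormones in the heart and its vessels.

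Most of the genes have few exons. Their annotated main transcripts had a median of 2.5 exons, and 8 of 10 had no more than 4, as did 17.6% of 9812 measured protein-coding genes, whose median was 10 exons. The exceptions were Klf4 with 5 exons and Nr4a1 with 8. The annotated gene of Dusp1 spanned 56539 bases, against a median of 32330 over the measured genes, and the other 9 spanned less than that median. The Dusp1 span begins upstream of the RefSeq start used below. Promoter windows, 250 bases before to 50 after the RefSeq gene start (build GRCm38.p6), were on hand for 8 of the 10, all except Egr1 and Ier2. Both strands were searched for 7 motifs, and matches describe letters, not bound sites. The cyclic AMP response element TGACGTCA lay in the windows of Btg2 and Dusp1, and in 1.80% of 32544 promoter windows of the same length. Its shorter part TGACG, which lies inside TGACGTCA, occurred in 5 of 8 windows (Btg2, Dusp1, Klf2, Klf4 and Nr4a1) and in 20.9% of all windows. TGCGTCA, an AP-1-like element whose other strand holds TGACG, occurred 4 times in Nr4a1 and in 2.13% of all windows. A CArG box was found in Zfp36 (1.64% of windows) and a match to the MEF2 consensus in Klf2 (3.16% of windows). The GC box GGGCGG lay in 8 of 8 windows (35.9% of all), and TATAAA lay in 0 of 8 (13.6%). The stretches below show these motifs, in capitals, upstream of the RefSeq start: TGACGTCA in Btg2, every TGACG in Dusp1, TGCGTCA in Nr4a1, the MEF2 match in Klf2, and for Zfp36 only the 30 bases around the CArG box. Those of Btg2 and Nr4a1 are the 250 bases before the start and those of Dusp1 and Klf2 the 200 bases farthest from it, while the Zfp36 bases lie inside the first exon of a longer transcript annotated by GENCODE M21. The Dusp1 and Nr4a1 stretches also lie within the annotated spans of their genes, downstream of the annotated start.
Btg2 (chr1:134079156-134079405, minus strand): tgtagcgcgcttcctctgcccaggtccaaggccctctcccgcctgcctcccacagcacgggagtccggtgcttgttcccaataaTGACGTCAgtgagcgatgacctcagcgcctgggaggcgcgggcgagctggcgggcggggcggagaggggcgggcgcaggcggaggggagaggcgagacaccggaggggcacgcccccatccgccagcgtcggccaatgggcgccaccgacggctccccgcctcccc
Dusp1 (chr17:26508523-26508722, minus strand): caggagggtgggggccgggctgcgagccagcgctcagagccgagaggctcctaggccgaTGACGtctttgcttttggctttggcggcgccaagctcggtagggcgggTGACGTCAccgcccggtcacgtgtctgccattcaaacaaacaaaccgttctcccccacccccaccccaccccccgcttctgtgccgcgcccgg
Nr4a1 (chr15:101266596-101266845, plus strand): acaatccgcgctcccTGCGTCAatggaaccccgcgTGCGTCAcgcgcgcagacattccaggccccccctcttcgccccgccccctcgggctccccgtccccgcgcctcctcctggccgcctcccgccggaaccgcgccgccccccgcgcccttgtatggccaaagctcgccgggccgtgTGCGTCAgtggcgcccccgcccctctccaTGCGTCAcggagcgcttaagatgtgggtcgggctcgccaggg
Klf2 (chr8:72318812-72319011, plus strand): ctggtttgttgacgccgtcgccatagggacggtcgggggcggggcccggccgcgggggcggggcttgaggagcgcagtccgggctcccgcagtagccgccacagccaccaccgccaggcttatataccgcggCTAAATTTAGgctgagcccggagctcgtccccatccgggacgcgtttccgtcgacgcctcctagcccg
Zfp36 (chr7:28379267-28379296, minus strand): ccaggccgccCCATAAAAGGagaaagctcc

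The AU-rich pentamer ATTTA occurred in the 3' UTR of 9 of 10 genes, all except Ier2, and in 71.6% of the 9812 measured protein-coding genes. The stricter heptamer TATTTAT, the core to which the Zfp36 protein itself binds, occurred in 6 of 10 against 31.8%. One 30-base site of each of these 6 genes is shown from the GRCm38 transcripts with the heptamer in capitals, because Zfp36, itself a member, is known to act through such sites. Zfp36 mRNA carries 3 of them, as does Dusp1.
Zfp36 (chr7:28376965-28376994, minus strand): agtgggcccttTATTTATgacgactttatt
Btg2 (chr1:134077248-134077277, minus strand): aaatgaagagcTATTTATacatgttttttt
Dusp1 (chr17:26506158-26506187, minus strand): gagctggtcctTATTTATttaacacccccc
Socs3 (chr11:117966138-117966167, minus strand): ctttgcacataTATTTATATTTATactcag
Klf2 (chr8:72320988-72321017, plus strand): aaacagactgcTATTTATtggaccttagga
Klf6 (chr13:5868490-5868519, plus strand): gctacgtctctTATTTATgccttgaggact

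All 10 genes were detected in every chamber label, and the 5 with the most UMIs in LV, namely Egr1, Btg2, Zfp36, Ier2 and Dusp1, were found in 67.0 to 86.8% of its wells. Levels are UMIs per 1000000 nuclear-encoded UMIs (CPM), not divided by gene length, and are compared between pools for each gene. Summed over the 10 genes, LA wells had 1193 CPM (1124 to 1265), RA wells 934 (849 to 1025), LV wells 1654 (1604 to 1704) and RV wells 1260.5 (1221 to 1301). The LV pool lay above the other 3, LA and RV overlapped in their intervals, and RA lay lowest. A single RA well of library C gave 131227 of the RA pool's 470095 nuclear-encoded UMIs and 115 of its 439 UMIs of the 10 genes. Single wells spread far more widely than the pools: the summed level ran from 0 to 7391 CPM over LV wells with a median of 1168, and from 0 to 3744 over RV wells with a median of 1207. The median well thus differed little between the ventricles, and the highest LV well was one poor in cardiomyocyte RNA, described with Klf2 below. Without the wells under 2% cardiomyocyte marker RNA, the summed level was 1120 CPM in LA, 1460.1 in LV and 1245 in RV.

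**Figure D1:**
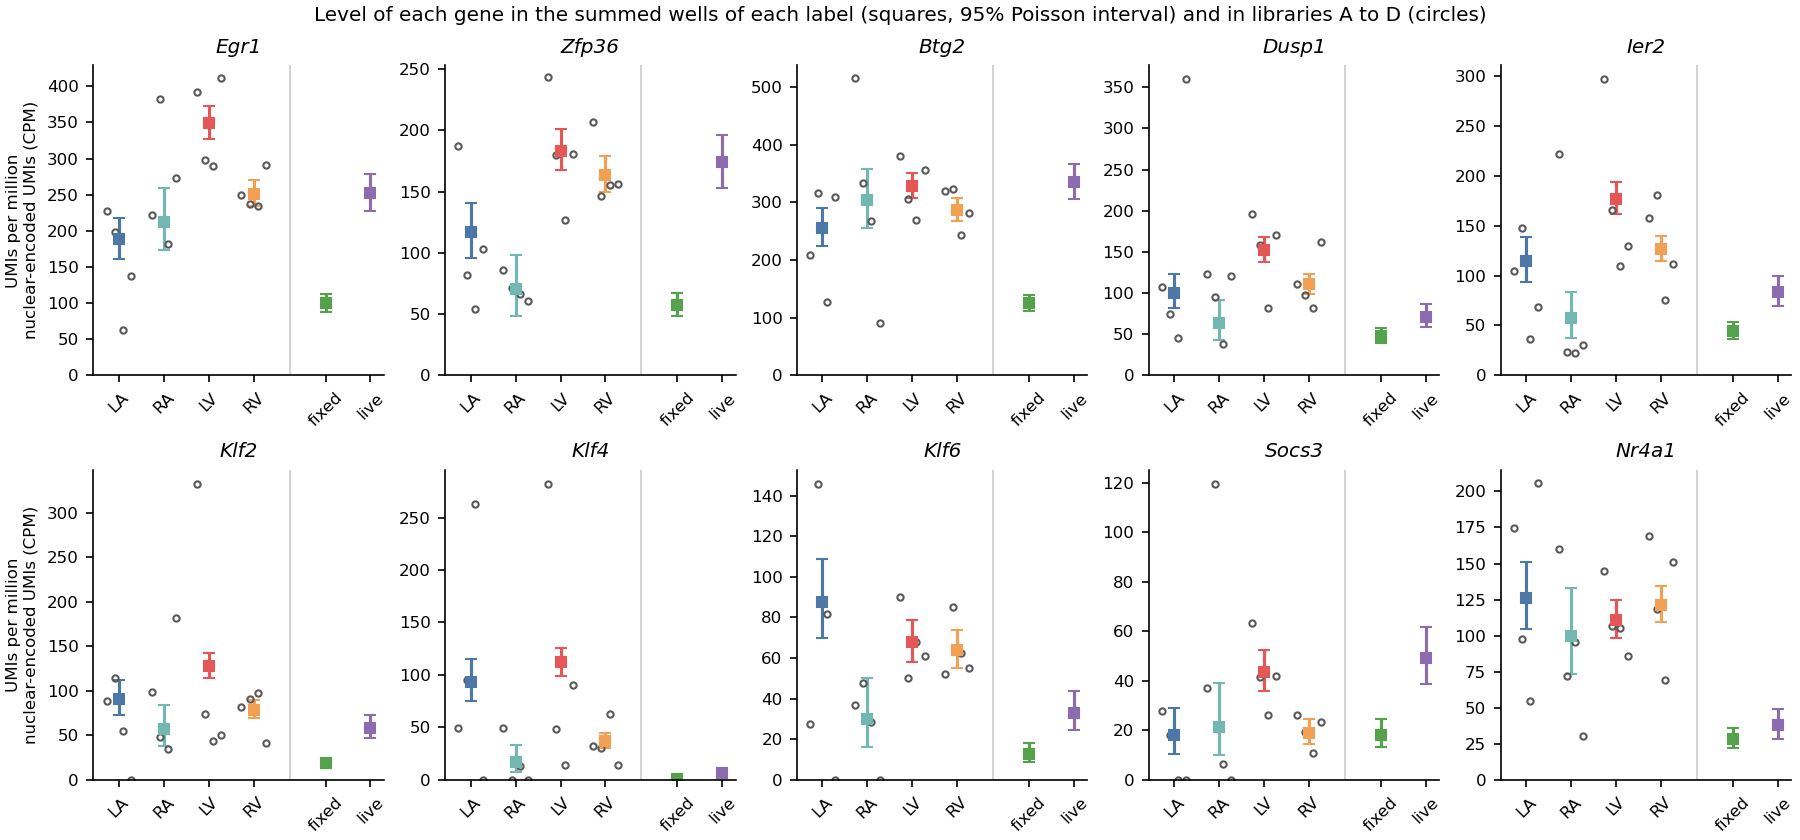
Level of each gene in CPM (y axis) in each label (x axis), as pool values with 95% Poisson intervals (squares) and in each of libraries A to D (circles, left to right). Fixed cells lie below live cells for every gene, Klf2 and Klf4 in LV and Klf4 in LA have 1 library far above the others, and levels to the left and right of the grey line come from separate studies that are not compared.

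Egr1 encodes a zinc-finger transcription factor induced by growth factors and stretch. LA wells had 188 CPM of it (162 to 218), RA wells 213 (173 to 259), LV wells 349.6 (327 to 373) and RV wells 252 (234 to 270). LV was the highest pool, and the intervals of RA overlapped those of both LA and RV. Nr4a1, an orphan nuclear receptor, stood at 126, 100.0, 111 and 121 CPM in LA, RA, LV and RV, with overlapping intervals throughout. Ier2, a nuclear early-response protein, stood at 115, 57.4, 177 and 126 CPM in the same order, so that RA was lowest and LV highest.

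Among the brakes, Zfp36 stood at 117, 70.2, 184 and 164 CPM in the LA, RA, LV and RV pools. Btg2 varied least of the 4, with 256, 304, 329 and 287 CPM. Dusp1 stood at 101, 63.8, 152 and 111 CPM. Socs3 was found by few UMIs, at 18.2 CPM for LA, 21.3 for RA, 43.6 for LV (35.9 to 52.5) and 19.1 for RV (14.4 to 24.7). The LV interval lay above those of LA (10.6 to 29.1) and RV and overlapped that of RA (10.2 to 39.1).

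RNA of the Krüppel-like factors was spread unevenly over wells. Klf2, a flow-induced factor of endothelial cells, stood at 91.0, 57.4, 128 and 78.6 CPM in that order. Klf4, which shares many targets with Klf2, stood at 93.2, 17.0, 112 and 36.8 CPM, and Klf6, an injury-induced relative, at 87.8, 29.8, 67.8 and 63.9 CPM. Klf4 was found in 31.9% of LV and 28.9% of RV wells (exact binomial intervals 22.5 to 42.5% and 19.8 to 39.4%), and its pool level was 3.04-fold higher in LV. RV wells were deeper, with a median of 28835 nuclear-encoded UMIs against 23167 in LV, and after thinning each well to 5000 UMIs Klf4 was found in 17.4% of LV (10.1 to 27.1%) and 5.75% of RV wells (1.89 to 12.9%).

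Ethanol-fixed ventricular cells held less early-response RNA than live ones. The 10 genes summed to 454 CPM in fixed (427 to 481) and 1101 CPM in live cells (1048 to 1156), a 2.43-fold lower level in fixed cells (2.25 to 2.62). The median well was at 377 CPM in fixed cells, where the highest of 35 wells reached 1347, and at 1007 CPM in live cells, where the lowest of 31 wells was at 314. The ranges of single wells overlapped. Of the 9 members with at least 30 UMIs over both pools, 7 were at least 1.5-fold lower and 0 were higher, on the scale of log2(CPM + 5) used for all such counts. In this comparison 33.8% of 7860 genes were at least 1.5-fold lower and 7.54% were higher. The median log2 difference of fixed minus live cells was −1.23 over the 9 members and −0.31 over all genes. With median-of-ratios scaling, which raised the median of all genes to 0.15, 6 members were lower and 14.5% of all genes were.

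Klf2 and Zfp36 differed most between fixed and live cells among the measured members. Klf2 stood at 18.6 CPM in fixed cells, against 58.6 CPM in live cells, 3.16-fold lower in fixed cells (2.18 to 4.63). Zfp36 stood at 57.3 CPM in fixed cells, against 174 CPM in live cells, 3.03-fold lower in fixed cells (2.46 to 3.75). Socs3 was 2.71-fold lower (18.1 CPM in fixed, 49.2 in live), Btg2 2.68-fold (125 CPM in fixed, 336 in live), Klf6 2.58-fold (12.8 CPM in fixed, 33.0 in live) and Egr1 2.53-fold (99.8 CPM in fixed, 252 in live). Brakes and activating factors are both among these 6 genes. Ier2 was 1.88-fold lower, with 44.5 CPM in fixed cells, against 83.6 CPM in live cells.

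Dusp1 and Nr4a1 differed least. Dusp1 stood at 48.3 CPM in fixed cells, against 71.4 CPM in live cells, 1.48-fold lower (1.13 to 1.94), a log2 difference of −0.52 that was −0.063 with TMM (trimmed mean of M values) and −0.0018 with median-of-ratios scaling. Nr4a1 stood at 28.5 CPM in fixed cells, against 37.7 CPM in live cells, a ratio of 0.754 whose interval (0.522 to 1.09) includes 1, and its log2 difference of −0.35 was 0.078 with TMM and 0.14 with median-of-ratios scaling. Counted in sequencing reads instead of UMIs, Nr4a1 was 1.87-fold higher in fixed cells, with 9.96 reads per UMI in fixed and 4.32 in live cells. Klf4 was hardly present in this study, with 1 UMI in fixed and 9 UMIs in live cells.

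The share of wells with a UMI depends on depth, and fixed wells held a median of 63954 nuclear-encoded UMIs and live wells 32186. Egr1 was found in 88.6% of fixed and 96.8% of live wells, and after thinning each well to 5000 UMIs in 32.4% of 34 fixed and 72.4% of 29 live wells. Btg2 gave 35.3% of fixed and 72.4% of live wells on the thinned scale. For Ier2 the thinned shares lay close, at 26.5% of fixed and 27.6% of live wells, while Dusp1 gave 17.6% of fixed and 13.8% of live and Nr4a1 17.6% of fixed and 6.90% of live wells, with overlapping intervals. Without any total, fixed wells averaged 6.91 Egr1 UMIs and live wells 12.1, and for Nr4a1 the averages were 1.97 in fixed and 1.81 in live wells. Mitochondrially encoded RNA, which is outside the CPM total, took a median of 13.8% in fixed and 26.1% in live wells, and endothelial marker RNA 57.3 CPM in fixed and 86.9 CPM in live pools; their part in the result was not tested.

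**Figure D2:**
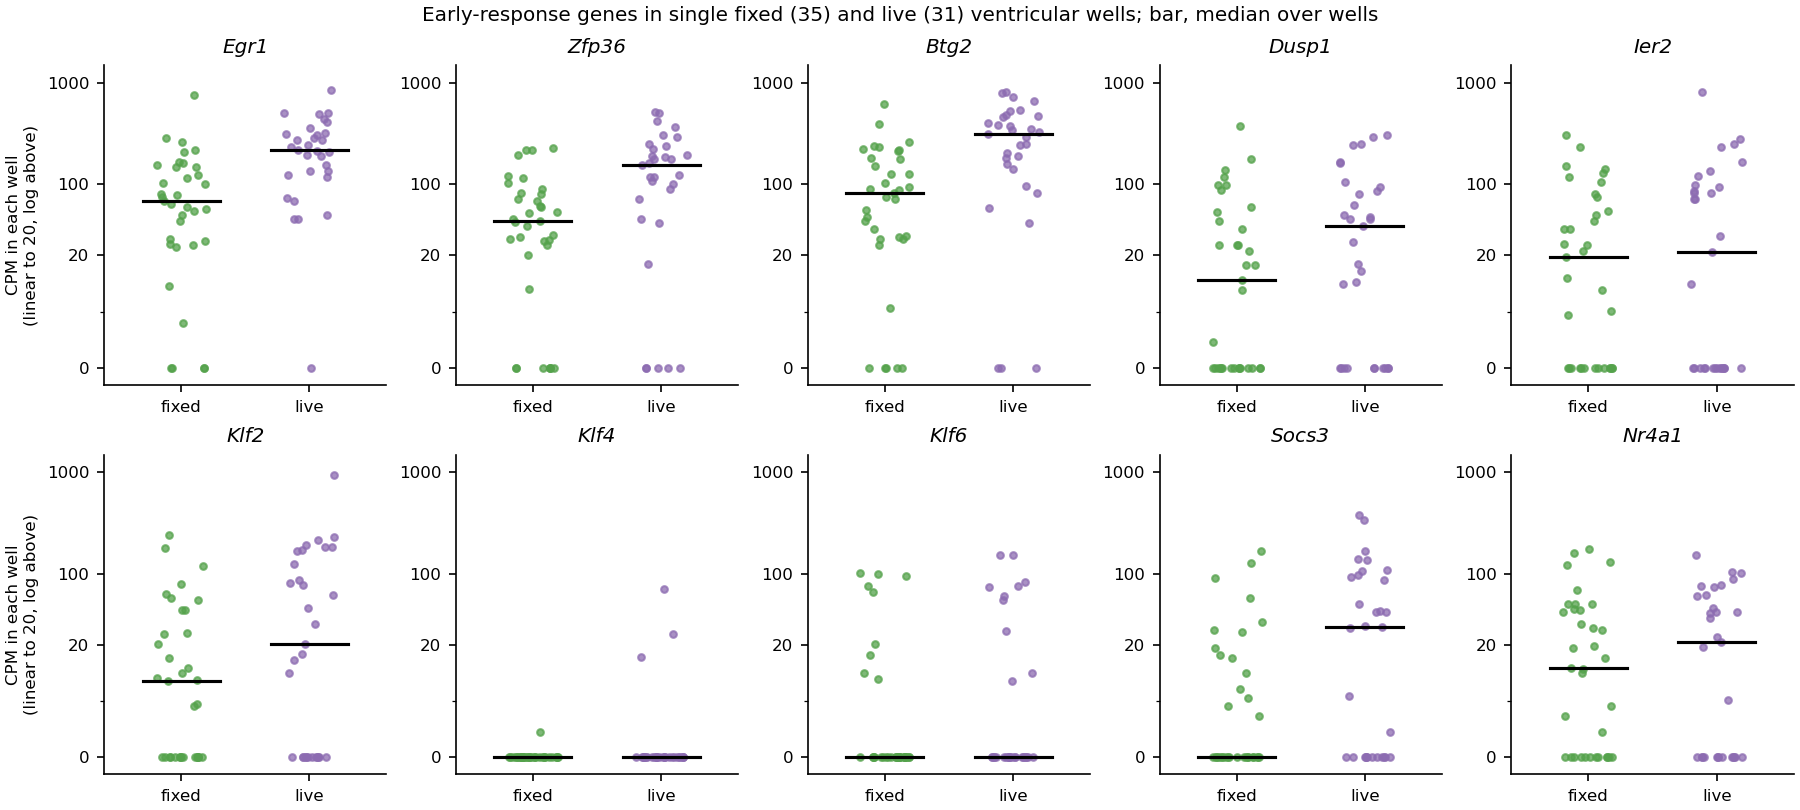
Level of each gene in CPM (y axis, linear to 20 and logarithmic above) in each of 35 fixed and 31 live ventricular wells (x axis), with the median as a bar. For Egr1, Zfp36 and Btg2 the fixed median lies well below the live median while single wells overlap, and Klf4 was detected in 1 fixed and 3 live wells.

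In left ventricular cells, Klf4, Socs3 and Klf2 stood above right ventricular cells, but only part of this was shared by the libraries. Of the 10 members, 3 were at least 1.5-fold higher in LV and 0 were lower, where 11.4% of 10812 genes were higher and 7.18% lower, and the median log2 difference was 0.45 over the members and 0.034 over all genes. Summed over the 10 genes the ratio of LV over RV was 1.31 (1.26 to 1.37), and it was 1.17 without the wells poor in cardiomyocyte RNA. Egr1 had a ratio of LV over RV of 1.39 (1.26 to 1.53), and its summed level was higher in LV in 4 of 4 libraries: 392 against 249 CPM in library A, 298 against 237 in B, 290.4 against 234 in C and 412 against 291 in D. The median well did not follow throughout. It was lower in LV in libraries A (243 against 252 CPM) and C (155 against 204), and higher in B (199 against 138) and D (299 against 174). Socs3 was 2.29-fold higher (1.65 to 3.21) and also higher in 4 of 4 libraries, with ratios of 1.80 to 2.44. Over all wells, Ier2 (1.40) and Dusp1 (1.37) had ratios like that of Egr1 and were higher in 3 of 4. Zfp36, Btg2 and Klf6 had ratios of 1.12, 1.14 and 1.06. Nr4a1, with 0.914 (0.780 to 1.07), was the lone member under 1 over all wells and was lower in LV in 3 libraries. Without the wells poor in cardiomyocyte RNA, Ier2 stood at 151 CPM in LV against 127 in RV. Dusp1 then stood at 145 against 108, Zfp36 at 163 against 164 and Klf6 at 58.6 against 58.1.

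Klf4 was 3.04-fold higher in LV (2.43 to 3.82), but its ratio ran from 0.222 in library C to 8.65 in library A. Klf2 was 1.63-fold higher (1.38 to 1.94), with 332 CPM in LV against 81.4 in RV in library A, 73.4 against 90.5 in B, 43.3 against 97.0 in C and 49.9 against 41.2 in D. Klf2 was therefore higher in LV in 2 libraries and lower in 2. A single LV well of library A held 152 of the 329 Klf2 UMIs of the pool (46.2%), 115 of the 287 Klf4 UMIs (40.1%) and 81 of the 454 Ier2 UMIs (17.8%), while giving 3.26% of the pool's nuclear-encoded UMIs. Of all LV wells it had the most endothelial marker RNA, 688 UMIs, and cardiomyocyte markers took 0.848% of its RNA, against a median of 8.05% over LV wells. Without it, the LV levels were 71.3 CPM for Klf2 (61.2 to 82.6) and 69.3 CPM for Klf4 (59.3 to 80.5), against 78.6 and 36.8 CPM in RV. Without all 3 ventricular wells under 2% cardiomyocyte marker RNA, 2 members were at least 1.5-fold higher in LV, Klf4 with a ratio of 2.24 and Socs3 with 2.14, while Egr1 had 1.36 and Klf2 0.912. Without library A 1 member was at least 1.5-fold higher, and the log2 differences of Klf4 and Klf2 were 0.38 and −0.46.

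**Figure D3:**
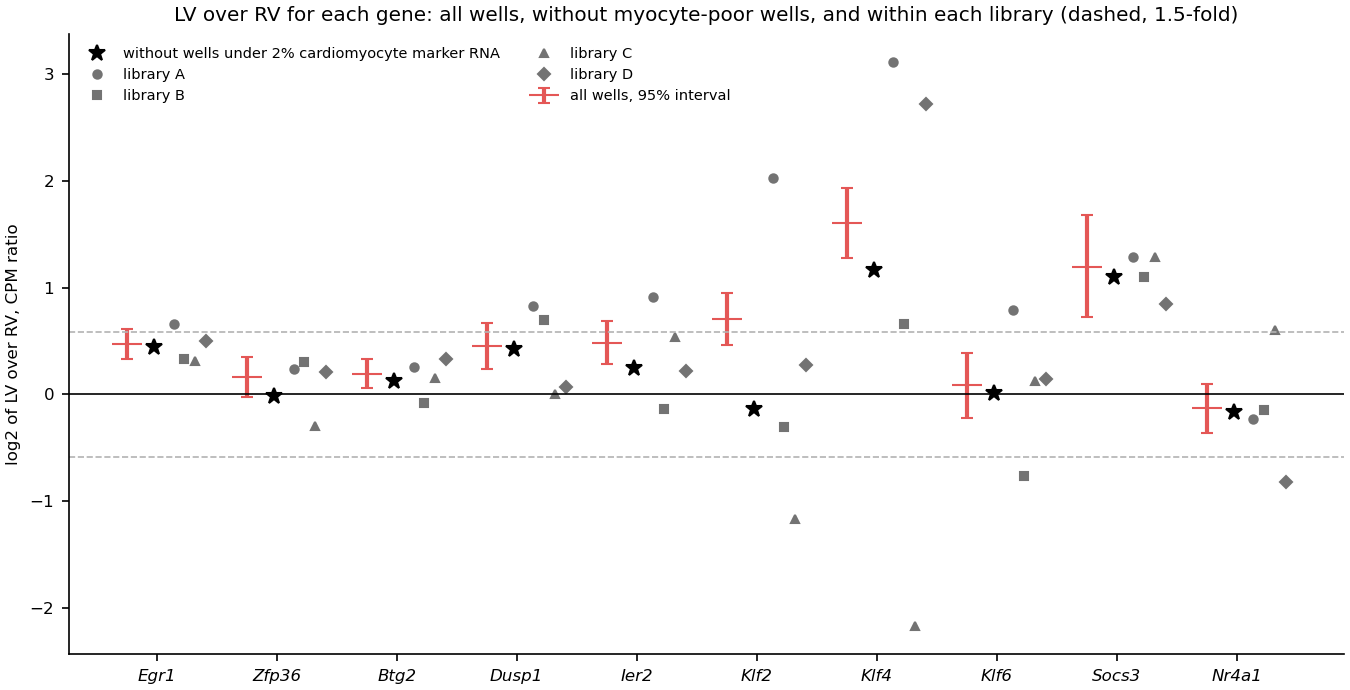
Log2 ratio of LV over RV in CPM (y axis) for each gene (x axis): all wells with the 95% interval (red), without the 3 ventricular wells under 2% cardiomyocyte marker RNA (stars), and within libraries A to D (grey). Egr1 and Socs3 are above 0 in 4 of 4 libraries, Klf4 and Klf2 scatter widely across libraries, and Klf2 falls below 0 without those wells.

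Some wells poor in cardiomyocyte RNA held much RNA of the Krüppel-like factors. Of the 9 wells under 2% cardiomyocyte marker RNA, 5 held UMIs of Klf2, Klf4 or Klf6, and the 4 that held none were shallow LA wells with at most 5216 nuclear-encoded UMIs. In the 2 LV wells under 2% cardiomyocyte marker RNA, Klf2 stood at 1762 CPM against 68.7 CPM in the other 89 LV wells, Klf4 at 1274 against 69.5, Klf6 at 321 against 58.6 and Egr1 at 643 against 339. Of the UMIs in these 2 wells, 152 of 159 for Klf2 and 115 of 115 for Klf4 were in the library A well. The gap was 25.7-fold for Klf2 (20.5 to 32.0) and 1.90-fold for Egr1 (1.43 to 2.48). The 1 RV well had 197 CPM of Klf2 against 75.3 in the other 89, and 247 of Klf4 against 30.95. The 6 LA wells were of 2 kinds. A well each of libraries B and C held 1609 of their 1611 mesothelial marker UMIs and all their Klf2, Klf4 and Klf6 UMIs, while the other 4 held 0 UMIs of the 3 genes and nearly all of the 8292 erythroid marker UMIs, 105 of which were in the first 2. Over the 6 wells together, Klf4 stood at 383 CPM against 26.3 in the other 50, Klf6 at 332 against 31.6 and Klf2 at 258 against 52.7. Egr1 stood lower there, at 34.3 CPM against 224, and Dusp1 likewise, at 11.4 against 121. These 6 wells gave 18.7% of the LA pool's nuclear-encoded UMIs but 77.0% of its Klf4, 70.7% of its Klf6 and 52.9% of its Klf2 UMIs, and 3.41% of its Egr1 UMIs. The 2% limit was chosen after 1 LV well was seen to hold much of Klf2 and Klf4.

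Across single wells, the level of Klf4 was set against that of endothelial marker RNA, with Pearson r of 0.12 over 56 LA, 0.45 over 44 RA, 0.37 over 91 LV and 0.47 over 90 RV wells. For Klf2 r was 0.39, 0.55, 0.23 and 0.44 in the same order, but 0.25 over 35 fixed and −0.28 over 31 live wells, and live Klf2 stood at 51.3 CPM in the 22 wells with an endothelial UMI and 159 CPM in the 9 without one. The values for Egr1 were 0.022, 0.26, −0.072 and 0.082, and those for Nr4a1 were −0.065, 0.11, −0.040 and −0.0064. These coefficients are over wells that share libraries and depth, and are given as a description. In the 76 LV wells with an endothelial UMI, Klf4 stood at 120.0 CPM against 33.3 in the 15 without one, and Egr1 at 347 against 374. Of the 279 Klf4 UMIs in those 76 wells, 115 were in the library A well with 688 endothelial marker UMIs. The wells with an endothelial UMI were also the deeper ones, with a median of 26308.5 nuclear-encoded UMIs against 13420. Klf2 and Klf4 RNA was still found in wells with a common share of cardiomyocyte RNA, and there the cell of origin of a single UMI cannot be told apart.

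**Figure D4:**
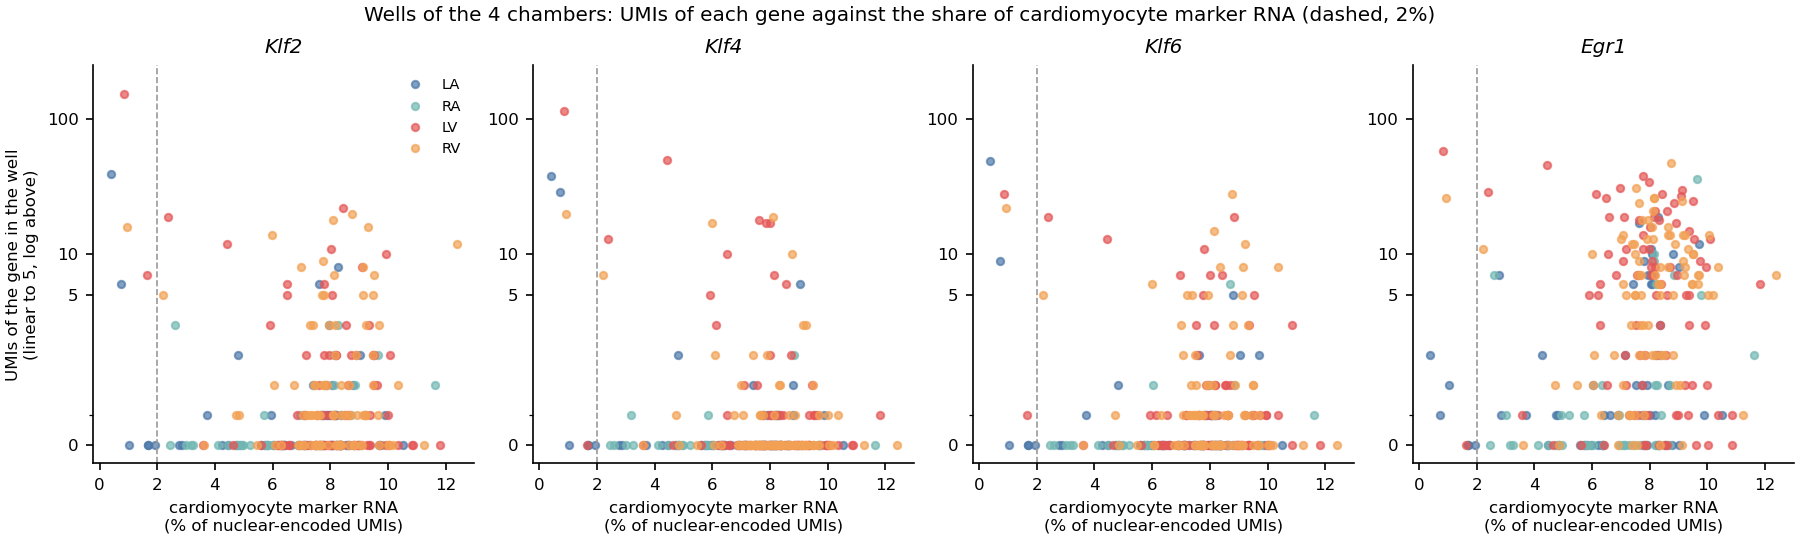
UMIs of Klf2, Klf4, Klf6 and Egr1 in each well (y axis, linear to 5 and logarithmic above) against the share of cardiomyocyte marker RNA in percent (x axis) for LA, RA, LV and RV wells. In LA and LV the highest Klf2, Klf4 and Klf6 counts lie left of the dashed 2% line, up to 152 UMIs of Klf2 in LV. In RV the highest Klf2 (20) and Klf6 (28) counts lie right of it, as does an LV well with 50 UMIs of Klf4, and RA has no well left of it.

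Atrial-labelled wells, LA and RA together, held less of Egr1, Zfp36 and Ier2 than ventricular-labelled wells in each of the 4 libraries, though some intervals within a library included 1. Socs3 was also lower in each, but rested on 12, 13, 2 and 0 atrial UMIs in libraries A to D. Every within-library interval of Socs3 included 1. Summed over the 10 genes the level was 1106 CPM in atrial and 1442 CPM in ventricular wells, a ratio of 0.767 (0.726 to 0.810). Zfp36 was 1.71-fold lower (1.43 to 2.05; 101 CPM in atrial, 173 in ventricular) and Ier2 1.57-fold lower (1.31 to 1.90; 95.5 CPM in atrial, 150 in ventricular). These 2 of 10 members passed 1.5-fold lower and 0 passed it higher, where 15.1% of 11682 genes were lower and 12.6% higher, and the median log2 difference was −0.43 over the members and −0.063 over all genes. Egr1 fell just short of the limit, with 197 CPM in atrial and 297 CPM in ventricular wells, 1.51-fold lower (1.33 to 1.72) without the pseudocount. Socs3 was 1.58-fold lower with a wide interval (1.05 to 2.47), and also short of the limit with the pseudocount. Nr4a1, with a ratio of 1.01 (0.844 to 1.20), Klf6 (1.04) and Klf4 (0.947) stood close to 1. Without the wells under 2% cardiomyocyte marker RNA, Klf4 and Klf6 stood apart instead, with ratios of 0.468 for Klf4 and 0.530 for Klf6. Then 3 members were at least 1.5-fold lower, Zfp36 (0.651) being the other. Klf2 was not among these 3, and Ier2 had a ratio of 0.762 and Egr1 of 0.756. Without library A 4 members were 1.5-fold lower and 1 higher, without B 6 were lower and without C 1. Counted against all UMIs, mitochondrial ones included, 0 members were 1.5-fold lower, where 7.53% of all genes were. Counted in reads 7 members were lower. No share of all genes was computed for read counts or without a library, so those counts have no background beside them.

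Between the 2 atrial labels, LA wells held more RNA of Klf4 and Klf6, most of it in 2 wells poor in cardiomyocyte RNA. Of 9 measured members, 6 were at least 1.5-fold higher in LA and 0 were lower, where 28.5% of 5715 genes were higher and 15.5% lower, and the median log2 difference was 0.62 over the members and 0.10 over all genes. Klf4 was 5.48-fold higher in LA (2.66 to 13.1), Klf6 2.95-fold (1.66 to 5.63) and Ier2 1.995-fold (1.30 to 3.17), followed by Zfp36 (1.66), Klf2 (1.58) and Dusp1 (1.58). Egr1 had a ratio of 0.886 (0.689 to 1.14) and was lower in LA in 3 of 4 libraries. In RA, a deep well of library C held 36.0% of the pool's Egr1 and 32.9% of its Btg2 UMIs. Another well of library C held 36.4% of the RA pool's Zfp36 and 30.0% of its Dusp1 UMIs. One LA well of library B, with 1005 mesothelial marker UMIs and 0.389% cardiomyocyte marker RNA, held 59.8% of the LA pool's Klf6, 45.9% of its Klf2 and 43.7% of its Klf4 UMIs, but 1.70% of Egr1 and 0 UMIs of Dusp1. Without the wells under 2% cardiomyocyte marker RNA, 3 members were at least 1.5-fold higher in LA, Ier2 (2.34), Dusp1 (1.90) and Zfp36 (1.84), while Klf6 had a ratio of 1.06 and Klf2 of 0.918, and Klf4 had too few UMIs to be counted. Without library B 3 members were higher, and without library C 3 were and the members' median turned to −0.033, with Ier2 and Dusp1 at −0.033 and −0.089. Kept wells were spread unevenly, with 23, 22, 6 and 5 LA and 11, 8, 17 and 8 RA wells in libraries A to D, so label and library are partly confounded.

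The members varied together from well to well in the LV and RV pools. Of the 45 pairs of members, 45 had a positive Pearson r of log2(CPM + 50) over LV wells (median 0.26) and 40 over RV wells (median 0.16). Over fixed wells 27 were positive (median 0.049), and over live wells 29 (median 0.096). Over all pairs of the 3249 other genes detected in at least 30% of wells in each pool, the median r was 0.039 in LV, 0.049 in RV, 0.055 in fixed and 0.045 in live wells. Of those pairs 63.0%, 65.9%, 61.2% and 58.6% were positive, in the same order of pools. The members' median and their count of positive pairs stood above these values in LV and RV. In fixed wells both lay near them. In live wells the members' median lay higher, while their count of positive pairs was little above that share. The pair with the highest mean over the 4 pools was Zfp36 and Btg2 (0.34), a pair of mRNA-decay regulators, with 0.10 in RV and 0.54 in LV. Next came Zfp36 and Ier2 (0.27, range 0.17 to 0.49) and Egr1 and Socs3 (0.27, range −0.048 to 0.49). Each member was also set against the sum of the other 9. Zfp36 followed that sum best, with a mean r of 0.40 over the 4 pools and a range of 0.35 to 0.46, then Btg2 (0.38) and Klf2 (0.34), while Klf4 (0.11) and Klf6 (0.13) followed it least. Wells of 1 pool share their library and differ in depth, and the level of 10 of 10 members in LV (Spearman 0.17 to 0.39) and of 9 of 10 in RV (−0.27 to 0.29) was positively related to depth; the part of depth in the pairwise values was not tested.

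**Figure D5:**
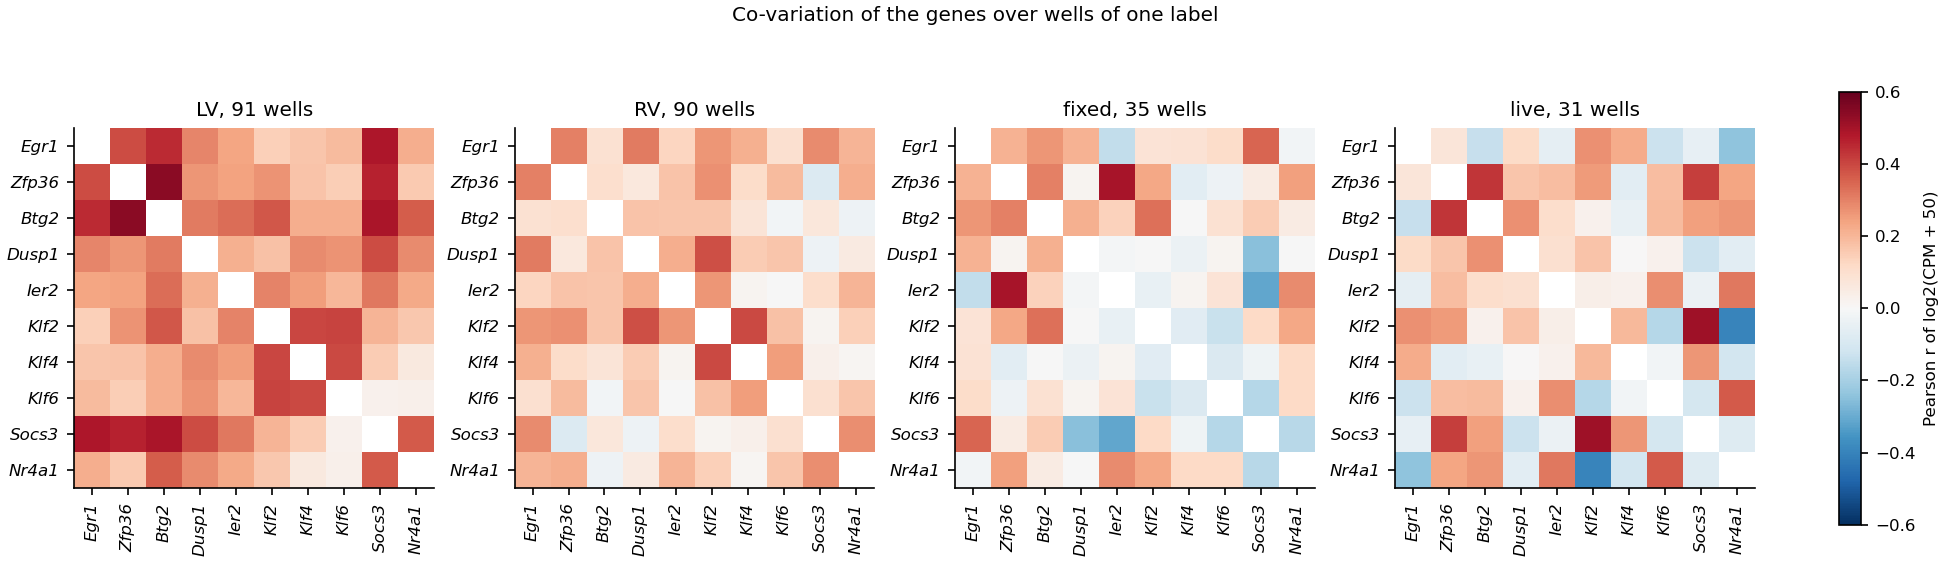
Pearson r of log2(CPM + 50) between each pair of genes over wells of LV, RV, fixed and live pools (colour, −0.6 to 0.6; white on the diagonal is not computed). All 45 pairs are positive in LV, Zfp36 with Btg2 and Socs3 with Egr1 and Btg2 are among the strongest there, and the 2 smaller pools show mixed signs.

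Among these 3249 other genes, Fos varied most like the members' sum, with a mean r of 0.42, and the median gene had 0.072. Malat1, a nuclear noncoding RNA, followed with 0.37, Junb with 0.36, and Pde4b, Dleu2, Pim1, Foxn3, Jun, Pdzrn3 and Limch1 with 0.33 to 0.31. Fos, Junb and Jun are AP-1 subunits, induced by the same class of signals.

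Most of the other measured early-response genes also stood lower in fixed cells. Of 9 measured AP-1 genes, 8 were at least 1.5-fold lower in fixed cells, with a median log2 difference of −1.10. Fos stood at 101 CPM in fixed cells, against 381 CPM in live cells, 3.77-fold lower (ratio 0.265, 0.227 to 0.308), and Atf3, a stress-induced subunit, at 82.1 CPM in fixed cells, against 182 CPM in live cells, 2.22-fold lower. Fosb stood at 3.30 CPM in fixed cells, against 16.8 CPM in live cells. Of 18 other measured early-response genes (median −0.59), 10 were lower and 1, the clock gene Per1, was higher, with 27.2 CPM in fixed cells, against 9.43 CPM in live cells. Cyr61, a matricellular target of serum response factor, stood at 96.9 CPM in fixed cells, against 177 CPM in live cells. Id2 stood at 4.95 CPM in fixed cells, against 36.4 CPM in live cells, and Gadd45g at 82.9 and 121.

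Of 22 measured paralogs (median −0.74) 12 were at least 1.5-fold lower in fixed cells and 1 was higher: Klf10 stood at 10.7 CPM in fixed cells, against 41.1 CPM in live cells, Dusp5, a phosphatase for ERK, at 3.71 and 21.6, Klf9 at 33.8 and 74.1, and Tob2, a relative of Btg2, at 58.6 and 86.3. Of 18 measured upstream kinases, receptors and factors (median −0.88), 12 were lower and 0 higher. Crem, a cyclic AMP responsive factor, stood at 4.54 CPM in fixed cells, against 40.4 CPM in live cells, Jak1 at 26.4 and 88.3, Stat3 at 78.8 and 185, and Mapk14 at 64.8 and 95.0. The background share of 33.8% lower applies to these lists too.

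Between the ventricles, 2 of 10 measured AP-1 genes (median 0.21) were at least 1.5-fold higher in LV: Fosb, with 51.4 CPM in LV against 25.1 CPM in RV, and Maff, with 14.03 and 5.02. Fos (383 CPM in LV, 331 in RV) and Jun (535 and 486) were close. Of 27 other early-response genes (median 0.11) 4 were higher and 1 lower, with Errfi1, a feedback inhibitor of the EGF receptor, at 26.1 CPM in LV against 5.69 CPM in RV and Id1 at 28.1 and 12.05. Of 27 paralogs (median 0.068) 3 were higher and 2 lower, among them Socs7 (31.2 CPM in LV, 15.1 in RV) and Dusp10 (11.7 and 5.02). Of 23 upstream genes (median 0.12) 1, Mef2d, was higher (75.2 CPM in LV, 45.5 in RV) and 1, Mapk9, lower (18.3 and 32.8). Over all genes 11.4% were higher and 7.18% lower, and the shares of the last 3 lists lay near or under 11.4%.

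Between atrial and ventricular labels, 0 of 11 measured AP-1 genes (median −0.10) were at least 1.5-fold lower in atrial wells and 1, Mafk, was higher (19.9 CPM in atrial, 11.5 in ventricular). Of 28 paralogs (median −0.0019) 4 were lower and 5 higher, with Klf7 at 26.4 CPM in atrial and 62.1 CPM in ventricular wells and Dusp6, a phosphatase for ERK, at 26.4 and 4.32. Of 27 other early-response genes (median −0.056) 4 were lower and 1 higher, and of 23 upstream genes (median −0.12) 3 were lower and 1 higher, with Elk3, an ETS partner of serum response factor, at 2.14 CPM in atrial and 17.5 CPM in ventricular wells. These counts stand beside 15.1% lower and 12.6% higher over all genes. Between the atrial labels, 2 of 7 AP-1 genes (median −0.37) were lower in LA and 1 higher: Jun stood at 380.2 CPM in LA against 659 CPM in RA, and Fosl2 at 77.1 and 25.5. Of 21 other early-response genes (median −0.13) 6 were lower and 6 higher, of 22 paralogs (median 0.23) 3 were lower and 6 higher, and of 17 upstream genes (median 0.26) 1 was lower and 4 were higher. Over all genes 15.5% were lower and 28.5% higher in LA, so the shares higher in LA were near or under the background for all 4 lists.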

How the data were processed

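UMI and read counts per gene and well were deposited by the authors, not normalized, with tables of well labels; the percent values in those tables, deposited with them, were not used. The submitters' processing notes name STAR 2.5.4b, featureCounts and the build GRCm38. The sources used here do not give the strand setting, so reads of a gene and of one that overlaps it in antisense may be mixed. Per the labels, tags held 6 barcode and 10 UMI bases, amplification ran for 17 cycles, and fixation added 800 µL of 100% ethanol to cells in 200 µL of buffer. PCR reads without UMIs are not independent molecules.

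Counts were summed per label and divided by nuclear-encoded gene UMIs (CPM), leaving mitochondrially encoded genes out of the divisor. Fold limits used log2((CPM + 5)/(CPM + 5)) at 1.5-fold with at least 30 UMIs over both pools. Ratios carry exact 95% Clopper-Pearson intervals, levels exact Poisson and shares exact binomial ones. Thinning used 5000 nuclear-encoded UMIs per well, leaving out shallower wells. No doublet caller was run, and 45 columns without a label were left out. Members, lists and limits were chosen with earlier results of these data known. Named genes of each other list were the 2 with the most UMIs and the 2 with the largest absolute log2 ratio; likeness ranked the 10 closest genes. The intervals were tested on simulated Poisson counts of whole pools. Those counts had no spread between wells, so that test covers counting error only. Alternatives were other totals and scalings, equal weight per well, read counts, pseudocount, filters, and leaving out wells or libraries. Sequences came from RefSeq promoters (GRCm38.p6) and GENCODE M21 transcripts. edgeR 4.0.16 (under R 4.3.3) gave the TMM scaling, and the rest ran in Python 3.11.15 with scipy 1.17.1, pandas 2.3.3, numpy 2.4.6 and matplotlib 3.10.9.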

Additional observations from a re-analysis of the deposited data

Results flagged for a closer look

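The 57 labelled wells under the limits of 1000 gene UMIs and 500 genes, which entered no comparison, held 30 UMIs of the 10 genes, in 17 wells. Over these wells' 39430 nuclear-encoded UMIs that is 761 CPM (513 to 1086). By label the counts were 3 UMIs in 15 LA wells, 15 in 25 RA wells, 2 in 5 LV wells, 0 in 6 RV wells, 0 in 1 fixed well and 10 in 5 live wells. The multichamber well with the most gene UMIs outside the limits, in LV, had 2787 gene UMIs, 444 genes and 0 UMIs of the 10 genes, and the one with the fewest inside, in LA, had 1443 gene UMIs, 639 genes and 7.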

How the results depend on the processing

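No paired analysis was possible because the labels name no replicate numbers or animals that pair wells; values within the libraries that labels share are given above. In the alternatives, 148 of 153 values kept their sign for fixed against live cells, 171 of 183 for LV against RV, 167 of 183 for atrial against ventricular and 147 of 159 for LA against RA. The alternative pseudocount cannot change a sign, so its values were bound to keep theirs. By a stricter measure, 551 of these values stayed within the counting interval around the main value. A further 116 left that interval, and 11 that were at least 1.5-fold turned to the other sign. The share of all genes was recomputed only under other totals and scalings. Counts of members under the remaining settings have no such share beside them.

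In fixed against live cells, other totals moved the median of all genes between −0.83 (spike-in UMIs as the total) and 0.15 (median-of-ratios), and the members' median relative to it stayed between −0.96 and −0.87; 6 members were lower where 14.5% of all genes were (median-of-ratios) and 9 where 65.1% were (spike-in totals). With read counts 1 member was higher. In the 3 fixed and 9 live wells without an endothelial UMI, 2 members had at least 30 UMIs, of which 1 was lower and Zfp36 had a log2 ratio of 0.024, and the 10 genes summed to 602 CPM in fixed and 1250 CPM in live wells.

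For LV against RV, the members' median of 0.45 moved to 0.17 with each well weighted equally, 0.19 without the top well of each gene, 0.16 without library A and 0.18 without wells under 2% cardiomyocyte marker RNA. Without library A 1 member was higher. Klf2 turned to −0.13, −0.46 and −0.12 without the top well, library A and those wells.

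For atrial against ventricular wells, 0 members were 1.5-fold lower with all UMIs as the total, where 7.53% of all genes were. The count was 7 with read counts, 4 with a pseudocount of 1 CPM and 4 with at least 5000 gene UMIs and 1000 genes. It was 4 in wells without an endothelial UMI and, on leaving out libraries A, B or C, 4, 6 and 1. Without A 1 was higher. The median of −0.43 moved to −0.74 with read counts and −0.90 in wells without an endothelial UMI.

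For LA against RA, the median of 0.62 turned to −0.033 without library C, where 3 members were higher and Dusp1, Ier2 and Klf2 turned to −0.089, −0.033 and −0.091. Without library B 3 were higher, as without wells under 2% cardiomyocyte marker RNA, where Klf2 was at −0.11. Without the top well 2 were higher and Klf2 was at −0.055. With each well weighted equally 2 were lower, with Klf2 at −0.68 and Klf6 at −0.81; read counts gave 2 lower, and wells under 2% non-myocyte RNA 1. The cause of these changes was not tested.

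The shallow atrial wells limit what can be seen: 3 counts correspond to 6.38 CPM in RA and 3.21 CPM in LA, against 1.17 CPM in LV and 1.00 CPM in RV.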
